A study of Mus musculus with 46 samples.

Results

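The homeostatic microglia signature was followed as 7 genes, Tmem119, Cx3cr1, Slc2a5, Upk1b, Olfml3, Sparc and Crybb1, which were taken by name from a fixed list, out of 21231 genes listed across 3 expression tables. Adult C57BL/6 males (1.5 months old in the study's methods, 2 months in its legends) received chow with or without PLX3397, an inhibitor of the receptors CSF1R, KIT and FLT3, at 600 ppm. In the white matter (WM) paradigm the drug was given for 14 days. Whole subventricular zone (SVZ) tissue, the strip along the lateral ventricle, came from control mice, from mice at the end of the drug and from mice at 5 day recovery (n = 5 libraries in each group). CD11b+CD45int cells, the gate used for microglia, were sorted from brain hemispheres of control mice and of WM mice at 28 day recovery, with no LPS (0 hr) or at 6 or 24 hr after intraperitoneal LPS at 0.33 mg/kg. Those 6 groups hold 3, 5 and 4 control libraries and 4 WM libraries at each time. In the GLOBAL paradigm the drug was given for 7 days, and cells were sorted the same way at 28 day recovery (n = 3) and from their own controls (n = 4). All 46 libraries are labelled C57BL/6 with no reporter or Cre allele named, so a WM or GLOBAL cell is defined by the mouse's treatment and the gate and not by a lineage mark.

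Microglia are the resident macrophages of the brain and depend on CSF1R signaling to survive. In the resting brain they hold a set of genes that other macrophages use little, and this set is known to fall when the cells are activated. The set holds a chemokine receptor, other proteins of the plasma membrane, secreted matrix proteins and a crystallin. Cx3cr1 is the receptor for the neuronal chemokine fractalkine. Tmem119 is a single-pass membrane protein used as a microglia marker, Slc2a5 (GLUT5) carries fructose across the membrane, and Upk1b is a tetraspanin first known from the urothelium. Olfml3 is a secreted olfactomedin-like protein. Sparc is a secreted collagen-binding protein that astrocytes and endothelial cells also make. Crybb1 is a beta crystallin, a protein class best known from the lens.

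In GRCm38.p6, the assembly that mm10 names, the genes lie as follows: Cx3cr1 at chr9:120048683-120068296, Tmem119 at chr5:113793729-113800396, Crybb1 at chr5:112254563-112269585, Slc2a5 at chr4:150119344-150144168, Upk1b at chr16:38773182-38800203, Olfml3 at chr3:103735394-103738001 and Sparc at chr11:55394159-55420080. RefSeq promoter windows were matched for 5 of the 7 (not Tmem119 and Upk1b). The 250 bases upstream of the RefSeq start are printed for 3 genes that the results turn on, Cx3cr1 (the lowest share of its control level after the drug), Crybb1 (called lower in WM cells at 0 hr) and Olfml3 (the largest share of its control level after the drug among the members called there), 5′ to 3′ on the gene's strand, with matches to the searched motifs in capitals. The start that RefSeq's window uses for Crybb1 lies inside the gene span given here, so its window is within the gene and not before it, while the other windows end at the edge of their gene spans.
Cx3cr1, chr9:120068297-120068546, minus strand: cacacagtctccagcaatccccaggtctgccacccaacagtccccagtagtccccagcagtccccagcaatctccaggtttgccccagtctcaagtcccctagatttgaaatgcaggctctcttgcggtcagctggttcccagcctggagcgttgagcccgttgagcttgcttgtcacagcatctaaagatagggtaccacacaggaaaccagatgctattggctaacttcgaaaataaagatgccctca
Crybb1, chr5:112255570-112255819, plus strand: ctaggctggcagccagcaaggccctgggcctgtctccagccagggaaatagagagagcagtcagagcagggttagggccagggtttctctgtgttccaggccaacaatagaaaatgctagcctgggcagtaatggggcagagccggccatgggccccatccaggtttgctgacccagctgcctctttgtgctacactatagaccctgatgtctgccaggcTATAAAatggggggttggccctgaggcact
Olfml3, chr3:103738002-103738251, minus strand: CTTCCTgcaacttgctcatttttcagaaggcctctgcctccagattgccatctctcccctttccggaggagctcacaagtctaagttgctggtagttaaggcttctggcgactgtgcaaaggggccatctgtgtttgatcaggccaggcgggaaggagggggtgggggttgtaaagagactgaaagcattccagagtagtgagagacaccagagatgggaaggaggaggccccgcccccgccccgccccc
The motifs were searched on both strands and were TATAAA (the core promoter box), AGGAAG (a core of ETS factors such as PU.1), TGANTCA (for AP-1), TAAAAATA (for MEF2) and GGAATTTCC (for NF-kB). The first and second were added after the windows had been looked at. Across all 32851 RefSeq windows of the same length, 12.4% held TATAAA, 29.5% AGGAAG, 6.75% TGANTCA, 2.45% TAAAAATA and 0.286% GGAATTTCC. Of the 5 members with a window, Crybb1 held TATAAA from 30 bases upstream of its start and Olfml3 held AGGAAG on the reverse strand at the far end of its window. These were the only matches to the 5 motifs in those windows.

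The values are FPKM, fragments scaled to gene length and to library depth, and each table was scaled on its own, so levels are compared within a table only. Depth, recovered from the steps between low values, was 4.57 to 10.6 M (mega) fragments a library in SVZ tissue, 5.24 to 10.4 M in the sorted WM and LPS libraries and 2.21 to 5.37 M in the GLOBAL libraries. A single fragment of Cx3cr1 was therefore far below its control level in all tables. Tests are limma on log2(FPKM + 1) over all genes with at least 1 FPKM in at least 3 libraries, a gene is called at a Benjamini-Hochberg adjusted p under 0.05, and log2 fold changes are on that scale, which understates the change of low genes. The study's methods count n in mice. The p-values set a difference against the spread between libraries within groups. That spread was pooled over all groups of a table and drawn toward that of genes at a similar level. Libraries outside a comparison can therefore shift its p-values. Where groups are said not to overlap, the share of all genes that separated as fully was not counted, so this is a description. Control SVZ library 1 stood apart by its choroid plexus markers (Ttr at 20946 FPKM against a control median of 32.1). Leaving it out kept 5 members called in both comparisons with control.

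In control SVZ tissue, Sparc was by far the highest member and the other members were low. Sparc reached 354 ± 84.0 FPKM (mean ± SD, n = 5), while Tmem119 stood at 26.8 ± 4.64, Cx3cr1 at 23.2 ± 1.94 and Olfml3 at 21.1 ± 2.53, and the ranges of these last neighbours overlapped. Below them, with ranges that did not overlap between neighbours, came Crybb1 at 8.91 ± 1.34, Slc2a5 at 3.93 ± 0.737 and Upk1b at 0.971 ± 0.477. In sorted control cells without LPS the order was Tmem119 (2892 ± 461 FPKM, n = 3), Cx3cr1 (2398 ± 360), Olfml3 (1518 ± 202), Sparc (1509 ± 216), Slc2a5 (532 ± 45.3), Crybb1 (523 ± 42.0) and Upk1b (233 ± 53.4). There, Tmem119 and Cx3cr1, Olfml3 and Sparc, and Slc2a5 and Crybb1 overlapped as neighbours. Sorting placed Sparc among the microglial genes, and the tissue table placed it far above them. The summed level of 10 pan-myeloid genes was 16133 to 26588 FPKM over the 24 sorted libraries, against 1.11 to 7.54 FPKM for 4 neuronal genes. Pan-myeloid genes do not tell microglia from other myeloid cells, and 7 neutrophil genes summed to 431 to 15234 FPKM in the same libraries, with no listed gene at 0 throughout a group. The highest sum was in a control library at 24 hr after LPS, a group where the neutrophil sum was 6308 to 15234 beside a pan-myeloid sum of 19186 to 20981.

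After 14 days of PLX3397, 5 of the 6 members tested were lower in SVZ tissue than in controls, where 1.21% of all 14151 genes tested were called lower. The same 5 were lower at 5 day recovery, against 1.09% of all genes. Cx3cr1 and Tmem119 were almost gone, Crybb1, Slc2a5 and Olfml3 kept a small remainder, and Sparc did not pass the test in either comparison. In bulk tissue, fewer cells of a type and less RNA per cell cannot be told apart. Both comparisons use the same control libraries. Some markers of other cells also moved. After the drug 2 of the 3 oligodendrocyte precursor genes were called lower (Pdgfra and Cspg4), with a median log2 fold change of -0.87 over the list and sums of 7.56 to 18.6 FPKM against 16 to 32.8 in controls. Of the border-associated macrophage genes 1 of 3 tested was called lower (Cbr2), and the 5 listed of 7 summed to 1.21 to 2.49 FPKM against 3.90 to 7.72. At recovery no gene of these lists was called against control. Of 6 astrocyte genes Gfap alone was called higher, after the drug and at recovery (1.11 and 1.39 on the log2 scale). No listed gene of these 3 lists was at 0 throughout a group, and their part in the values of the members was not tested.
Cx3cr1 read 20.7, 25.4, 24.1, 21.7 and 24.2 FPKM in the control libraries. At the end of the drug it read 0.179, 0, 0.0521, 0.0281 and 0, which are 6, 0, 2, 1 and 0 fragments. At 5 day recovery it read 1.25, 1.43, 0.646, 1.69 and 0.510. The 3 groups did not overlap, and the recovery libraries lay between the others. The log2 fold change was -4.53 ± 0.14 (SE; limma adjusted p = 7.45e-13) at the end of the drug and -3.56 ± 0.14 (adjusted p = 3.03e-11) at recovery.
Tmem119 read 19.2, 25.7, 29.1, 30.7 and 29.2 FPKM in controls, 0.160, 0.226, 0.47, 0.201 and 1.22 after the drug and 2.14, 2.56, 1.76, 2.18 and 0.973 at recovery. Drug library 5 was the highest of its group and reached into the recovery range. The log2 fold changes from control were -4.28 ± 0.19 (adjusted p = 9.2e-11) and -3.26 ± 0.19 (adjusted p = 4.85e-09).
Olfml3 read 18.6, 22.7, 24.2, 18.4 and 21.4 FPKM in controls, 2.56, 2.82, 3.97, 2.47 and 4.6 after the drug and 6.85, 6.01, 5.29, 4.23 and 5.11 at recovery. It fell by 2.38 ± 0.14 on the log2 scale after the drug (adjusted p = 5.58e-09) and its log2 fold change at recovery was -1.77 ± 0.14 (adjusted p = 3.9e-07). Of the called members it kept the largest share of its control level at both times.
Crybb1 read 7.42 to 10.1 FPKM in controls, 0.416 to 0.892 after the drug and 0.592 to 1.28 at recovery. Slc2a5 read 3.14 to 4.92, 0.408 to 0.645 and 0.334 to 0.720. Their log2 fold changes after the drug were -2.57 ± 0.13 and -1.71 ± 0.11 (adjusted p = 4.11e-10 and 2.32e-08), and those at recovery were -2.32 ± 0.13 and -1.70 ± 0.11 (adjusted p = 2.06e-09 and 3.05e-08). Neither gene's drug or recovery libraries overlapped with controls, and both rested on few fragments (2 to 9 for Crybb1 and 9 to 15 for Slc2a5 in those groups).
Upk1b was too low to pass the filter. It read 0.610, 1.61, 1.32, 0.488 and 0.831 FPKM in controls, 0.189, 0.266, 0.275, 0.355 and 0.616 after the drug and 0.315, 0.274, 0.130, 0.234 and 0.143 at recovery, from 2 to 6 fragments a library in the last 2 groups. With the filter removed its log2 fold changes from control were -0.53 ± 0.14 (adjusted p = 0.0761) and -0.66 ± 0.14 (adjusted p = 0.0137). The control and recovery libraries did not overlap.
Sparc read 312, 282, 357, 496 and 323 FPKM in controls, 440, 387, 211, 481 and 199 after the drug and 360, 506, 218, 319 and 395 at recovery. The groups overlapped throughout. The log2 fold change was -0.11 (95% confidence interval -0.66 to 0.44, adjusted p = 0.999) after the drug and -0.0010 (-0.55 to 0.55, adjusted p = 0.998) at recovery. Of the lists of other cells that could carry Sparc, the summed level of 5 endothelial genes was 168 to 199 FPKM in controls and 143 to 189 after the drug, and that of 6 astrocyte genes was 426 to 476 and 531 to 601. Their part in the Sparc level was not tested.

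**Figure D1:**
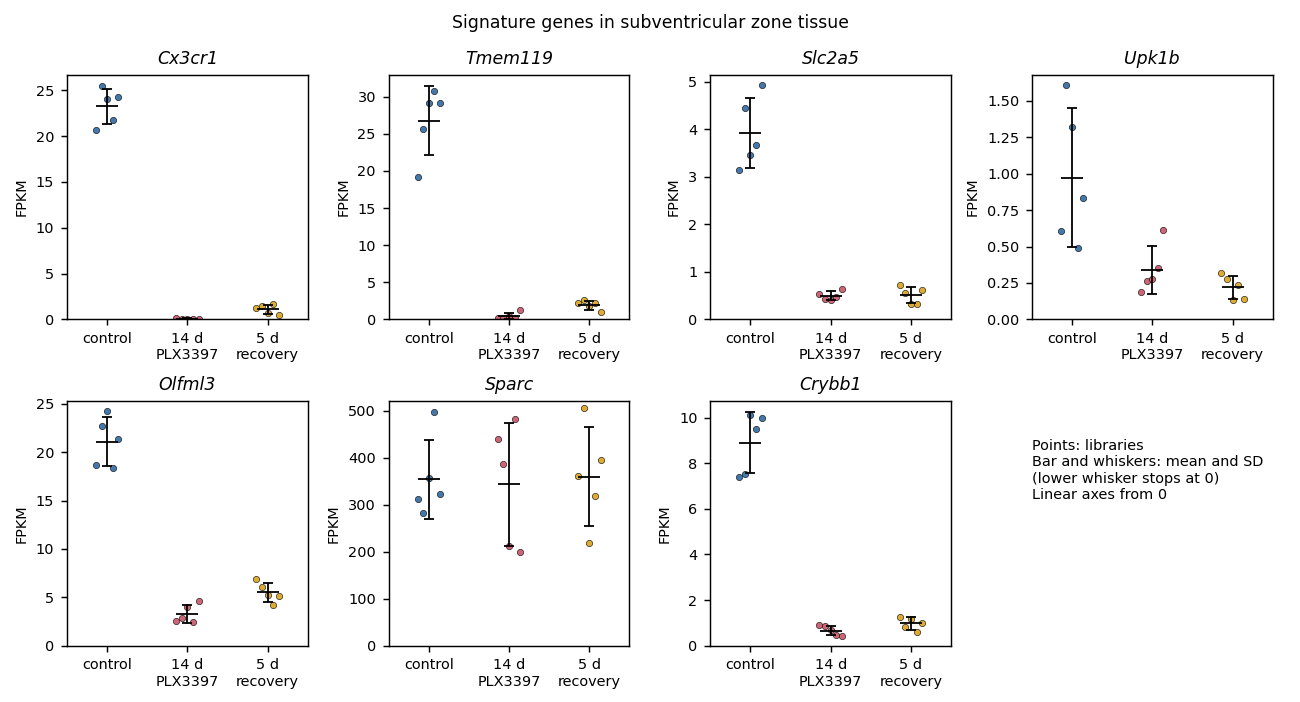
FPKM of the 7 signature genes (y axes, linear from 0) in SVZ tissue by group (x axes), with 1 point per library and the mean and SD. All panels but that of Sparc are low after PLX3397 and at recovery, with Cx3cr1 at 0 to 0.179 FPKM after the drug, and Sparc spans 199 to 481 FPKM there against 282 to 496 in controls.

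Set against each gene's control mean, the members spread widely in what was left. After the drug Cx3cr1 kept 0.223% ± 0.320 (SD, n = 5) of its control mean, Tmem119 1.70% ± 1.66, Crybb1 7.45% ± 2.43, Slc2a5 12.7% ± 2.45 and Olfml3 15.6% ± 4.51. Upk1b kept 35.0% ± 17 and Sparc 97.1% ± 37.0. Genes that all brain myeloid cells share give a scale for these shares. The 9 pan-myeloid genes with enough signal kept a median of 0.946%, from 0.419% for Csf1r, the drug's target, to 49.6% for Cd68, a lysosomal protein. All 9 of them were called lower after the drug and at recovery.
At 5 day recovery Cx3cr1 was back to 4.75% ± 2.19 and Tmem119 to 7.19% ± 2.25, beside a pan-myeloid median of 8.17% (3.91% to 57.3%). Olfml3 was at 26.1% ± 4.69, Slc2a5 at 13% ± 4.39 and Crybb1 at 11% ± 3.09. Only Cx3cr1 and Tmem119 were called higher at recovery than at the end of the drug among the 6 members tested, where 0.29% of all genes were called higher. Cx3cr1 rose by 0.97 ± 0.14 on the log2 scale (adjusted p = 0.00286). Tmem119 rose by 1.03 ± 0.19 (adjusted p = 0.0269), and its call was lost without any 1 of drug libraries 1 to 4 or recovery libraries 1, 2 and 4 (adjusted p 0.0585 to 0.102) and with the 2 groups fitted alone (0.0771).
Olfml3 was 0.61 ± 0.14 higher without passing (adjusted p = 0.0890), and was called without drug library 5 (0.0389). Crybb1 (0.25, 95% confidence interval -0.02 to 0.52), Slc2a5 (0.01, -0.23 to 0.25) and Sparc (0.11, -0.44 to 0.66) were not called. Of the 9 pan-myeloid genes tested, 6 were called higher in that comparison, with a median log2 fold change of 1.09, beside a median of 0.43 over the 6 members tested. Of the 3 oligodendrocyte precursor genes Pdgfra was called higher too (0.77 ± 0.10), and the list summed to 7.56 to 18.6 FPKM after the drug and 12.6 to 16.5 at recovery. The 2 neutrophil genes listed of 7 summed to 0 to 4.22 FPKM (median 0.721) and 1.71 to 15 (median 9.26), and neither was called. Their part in the rise of Cx3cr1 and Tmem119 was not tested.

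**Figure D2:**
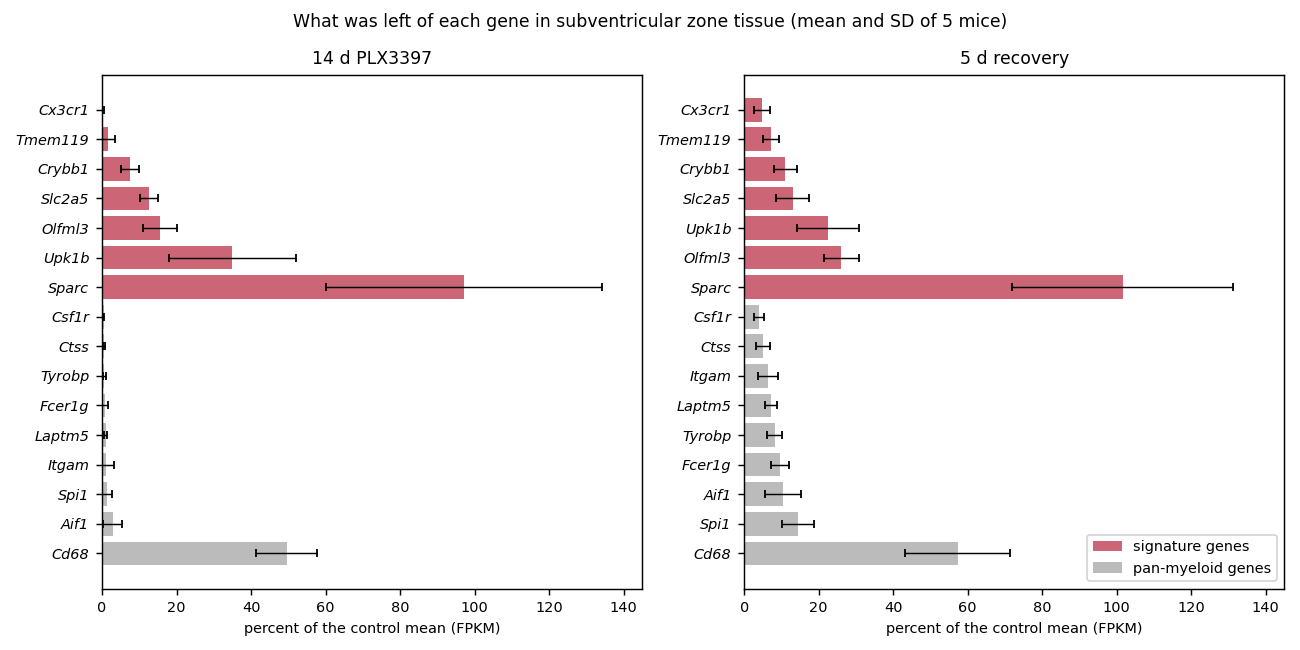
Level left in SVZ tissue as a percent of the control mean (x axes, linear from 0) for the 7 signature genes (red) and 9 pan-myeloid genes (grey), as means of 5 libraries with SD. After the drug the signature genes run from 0.223% for Cx3cr1 to 97.1% for Sparc, and at recovery from 4.75% to 102%.

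A wider list of 20 other genes of the resting state was also mixed in tissue. Of the 20, 13 were called lower after the drug and 14 at recovery, none higher, with median log2 fold changes of -1.0 and -0.95. After the drug the 20 genes were at a median of 40.4% of their control means, from 0.236% to 124%. The part of other cells of the tissue in what was left was not tested. The 4 largest falls after the drug were those of Fcrls, an Fc receptor-like protein (log2 fold change -4.29 ± 0.12), P2ry12, the ADP receptor of microglial processes (-4.08 ± 0.13), Siglech, a sialic acid-binding lectin (-3.41 ± 0.10), and Selplg, the ligand of P-selectin (-3.09 ± 0.12). At recovery P2ry12 (-4.06 ± 0.13) showed the largest fall of the list, and Fcrls (0.86 ± 0.12) and Selplg (0.59 ± 0.12) were the only 2 called higher than at the end of the drug. P2ry12 was at 1.88% ± 0.777 of its control mean after the drug and at 1.95% ± 0.818 at recovery.

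By 28 day recovery the sorted cells of the WM paradigm carried 5 of the 7 members at levels that did not pass the test against control microglia, while Upk1b and Crybb1 were called lower, where 0.497% of all 12684 genes tested were called lower.
Crybb1 read 485, 568 and 517 FPKM in control cells and 184, 189, 180 and 197 in WM cells. The groups lay far apart, and the WM mean was 35.9% of the control mean (log2 fold change -1.47 ± 0.34, limma adjusted p = 0.03). Upk1b read 223, 290 and 185 FPKM in control cells and 71.7, 92.5, 89.1 and 122 in WM cells, without overlap, at 40.3% of the control mean (log2 fold change -1.30 ± 0.27, adjusted p = 0.0152).
Both calls sat near the threshold. The Crybb1 call was lost without any 1 of the 7 libraries compared (adjusted p 0.0606 to 0.109) and after quantile normalization (0.0534), with the log2 fold change between -1.53 and -1.41. The Upk1b call was lost without control library 1 or 2 or WM library 1 (adjusted p 0.0511 to 0.0971). Without WM 24 hr library 2, which lies outside this contrast but feeds the shared spread, the Crybb1 adjusted p was 0.000525.
Tmem119 read 2375, 3042 and 3259 FPKM in control cells and 3688, 3862, 3941 and 4182 in WM cells. Olfml3 read 1307, 1536 and 1710 in control cells and 2099, 2036, 2068 and 2215 in WM cells. For both genes every WM library lay above every control library. Neither passed the test (log2 fold changes 0.45, 95% confidence interval -0.17 to 1.06, and 0.48, -0.20 to 1.16, limma adjusted p = 0.595 and 0.609). How many of all genes separated as fully was not counted. Cx3cr1 (0.01, -0.51 to 0.54), Sparc (0.01, -0.33 to 0.35) and Slc2a5 (-0.20, -0.83 to 0.43) were not called. Every WM library read below every control library for Slc2a5 (420 to 490 against 500 to 584 FPKM), and the signs of Cx3cr1 and Sparc turned after quantile normalization (-0.06 and -0.13).
None of the 20 wider genes or the 10 pan-myeloid genes was called between origins at 0 hr, with median log2 fold changes of -0.08 and 0.02. Some markers of other cells moved with the origin in the direction of Crybb1 and Upk1b: the 3 endothelial genes listed of 5 summed to 2.40 to 5.07 FPKM in WM cells against 8.32 to 12.8 in control cells, 6 astrocyte genes to 36.0 to 50 against 53.2 to 57.0, and 7 border-associated macrophage genes to 36.0 to 68.1 against 53.0 to 160. Of these lists 1 gene was called lower, the endothelial Pecam1 (-1.54 ± 0.35, 1 of 2 endothelial genes tested), and no listed gene was at 0 throughout a group. Their part in the 2 calls was not tested. Other lists moved the other way, the direction of the Tmem119 and Olfml3 values. The 2 choroid plexus genes listed of 3 summed to 274 to 704 FPKM in WM cells against 72.8 to 211 in control cells, and the 2 oligodendrocyte precursor genes listed of 3 to 0.198 to 0.319 against 0.0221 to 0.112. No gene of these lists was called or was at 0 throughout a group, and their part in the Tmem119 and Olfml3 values was not tested.

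The GLOBAL cells, with controls of their own, gave a second set of repopulated cells at 28 day recovery. No gene of all 16651 tested was called (0% in either direction), and of the 7 members only Crybb1 had an unadjusted limma p under 0.05. Crybb1 read 292, 256, 235 and 482 FPKM in controls and 143, 102 and 144 in GLOBAL repopulated cells. The groups did not overlap, and the repopulated mean was 41.0% of the control mean, beside the 35.9% seen in the WM table with other controls. These shares were not tested against each other. The log2 fold change was -1.24 ± 0.24 (adjusted p = 0.163). It was -1.01 without control library 4 (adjusted p = 0.11), the highest of its group.
Upk1b read 52.6, 61.2, 49.0 and 77.6 FPKM in controls and 52.8, 40.5 and 58.2 in GLOBAL cells. These groups overlapped, with a log2 fold change of -0.24 (95% confidence interval -0.65 to 0.17), or -0.11 without control library 4. In the WM table the interval for Upk1b ran from -1.86 to -0.74. The 2 tables were normalized separately, so the difference between the paradigms was not tested.
Cx3cr1 read 1758, 1777, 1749 and 1823 FPKM in controls and 2020, 1916 and 1845 in GLOBAL cells, a log2 fold change of 0.12 (-0.20 to 0.43). Olfml3 read 1910 to 2359 FPKM in controls and 2497 to 2730 in GLOBAL cells, without overlap and without passing the test (0.29, -0.06 to 0.64, adjusted p = 0.608). Tmem119 (0.17, -0.30 to 0.64), Sparc (0.18, -0.15 to 0.51) and Slc2a5 (-0.07, -0.40 to 0.25) overlapped between groups, and without control library 4 Tmem119 was at 0.36 and Slc2a5 at 0.0222, neither called. Border-associated macrophage genes summed to 32.1 to 55.0 FPKM in the controls and 18.3 to 31.7 in the GLOBAL cells, and astrocyte genes to 28.9 to 31.2 and 23.5 to 27.7. Endothelial genes summed to 20.1 to 72.0 and 12.4 to 26.9 FPKM, and monocyte genes to 209 to 1085 and 151 to 407. Pan-myeloid genes went the other way, at 12357 to 14716 and 14014 to 15911 FPKM. Neutrophil genes summed to 2102 to 22613 FPKM in the controls and to 1266 to 4572 in the GLOBAL cells, and no listed gene was at 0 throughout. Their part in these values was not tested.

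**Figure D3:**
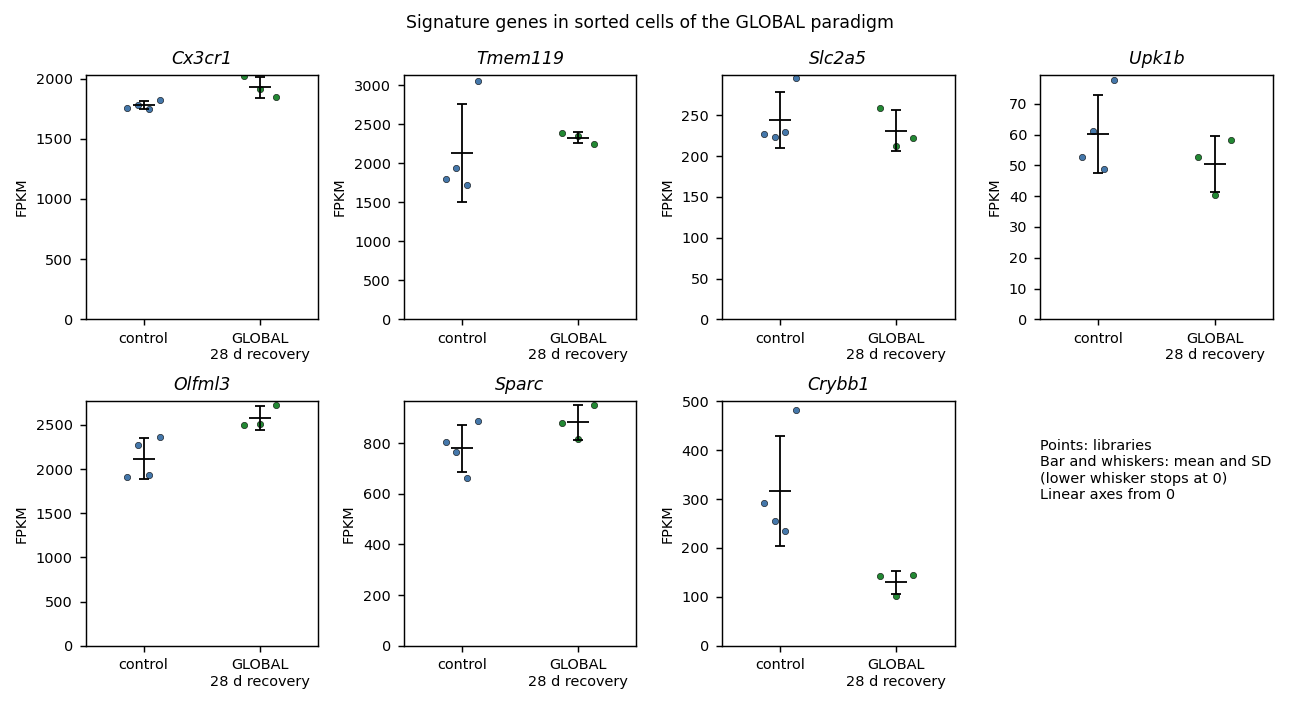
FPKM of the 7 signature genes (y axes, linear from 0) in sorted control cells (4 libraries) and GLOBAL repopulated cells at 28 day recovery (3 libraries), with mean and SD. Crybb1 lies at 102 to 144 FPKM in repopulated cells, below the 235 to 482 FPKM of controls, and control library 4 is the highest control for all 7 genes.

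LPS lowered every member within 6 hr in cells of both origins. All 7 were called lower in control cells, where 21.1% of all genes were called lower, and all 7 in WM cells, against 19.5% of all genes. The median log2 fold change over the members was -1.85 in control cells and -1.66 in WM cells. Of the LPS response genes listed, 8 of 9 were called higher in control cells and 6 of 9 in WM cells, where 21.4% and 19.3% of all genes were. Among them was Saa3, an acute phase protein (12.12 and 11.77 on the log2 scale).
Slc2a5 fell most in both origins. It read 500, 584 and 512 FPKM in control cells at 0 hr and 73.8, 66.6, 74.8, 40.1 and 70.4 at 6 hr (log2 fold change -3.04 ± 0.29, adjusted p = 1.71e-08). In WM cells it read 420, 490, 452 and 488 at 0 hr and 60.9, 86.5, 85.4 and 58.5 at 6 hr (-2.67 ± 0.28, adjusted p = 8.63e-08). The fructose transporter was thus at 12.3% and 15.7% of its 0 hr mean.
Upk1b came next, at 31.8, 31.8, 26.7, 25.7 and 44.2 FPKM in control cells at 6 hr (-2.82 ± 0.26, adjusted p = 8.51e-09) and 10.4, 13.8, 27.7 and 16.2 in WM cells (-2.45 ± 0.25, adjusted p = 5.26e-08). These were 13.8% and 18.2% of the 0 hr means.
The chemokine receptor Cx3cr1 read 1982, 2616 and 2597 FPKM at 0 hr and 802, 542, 1244, 682 and 830 at 6 hr in control cells. In WM cells it read 2242, 2356, 2385 and 2649 and then 966, 703, 710 and 685. The log2 fold changes were -1.59 ± 0.24 and -1.66 ± 0.24 (adjusted p = 1.22e-05 and 5.38e-06). Tmem119 fell to 590 to 1204 FPKM in control cells and 872 to 1149 in WM cells (-1.85 ± 0.28 and -1.97 ± 0.28, adjusted p = 1.34e-05 and 4.75e-06). For both genes the 0 and 6 hr libraries did not overlap in either origin.
Olfml3 read 400, 454, 514, 318 and 361 FPKM in control cells at 6 hr and 766, 848, 701 and 641 in WM cells (-1.90 ± 0.32 and -1.52 ± 0.31, adjusted p = 3.36e-05 and 0.000346). Crybb1 read 131 to 249 and 72.5 to 117 FPKM (-1.46 ± 0.33 and -0.98 ± 0.32, adjusted p = 0.000864 and 0.0172). The WM call of Crybb1 was lost without WM 6 hr library 2 (adjusted p = 0.0607). Sparc fell least, to 612 to 941 and 635 to 922 FPKM (-1.04 ± 0.16 and -0.94 ± 0.15, adjusted p = 1.02e-05 and 3.22e-05), which is 48.7% and 52.5% of its 0 hr means.
Of the 20 wider genes 17 were called lower at 6 hr in each origin and none higher (median log2 fold changes -1.41 and -1.13). Gpr34, a lysophosphatidylserine receptor, led the list with -4.45 ± 0.29 in control cells and -3.58 ± 0.28 in WM cells, followed by P2ry12 (-3.45 ± 0.23 and -2.71 ± 0.23). Bin1 (-2.18 ± 0.29 and -1.59 ± 0.28) fell in both, and Sall1 (-1.88 ± 0.17 in control cells) and Adgrg1 (-1.96 ± 0.27 in WM cells) completed the largest falls.
The pan-myeloid genes moved less, with 5 of 10 lower and 1 higher in each origin and medians of -0.31 and -0.27. Monocyte markers moved with LPS: 5 of 6 were called higher at 6 hr in each origin, and the list summed to 118 to 360 FPKM at 0 hr and 1426 to 2623 at 6 hr in control cells, and to 151 to 438 and 1349 to 3563 in WM cells. Of the neutrophil markers 1 of 7 was called lower in control cells and 5 of 7 in WM cells (median log2 fold changes -1.36 and -2.27), and the list summed to 1782 to 8707 FPKM at 0 hr and 893 to 5673 at 6 hr in control cells, and to 2805 to 10581 and 431 to 10080 in WM cells. Of the 6 border-associated macrophage genes tested, 4 were called lower and 1 higher in control cells, and 2 lower and 1 higher in WM cells. That list summed to 53.0 to 160 and 51.7 to 91.1 FPKM in control cells, and to 36.0 to 68.1 and 49.5 to 81.6 in WM cells. Some markers of cells that are not myeloid moved as well. Gja1 was called higher in control cells (1 of 4 astrocyte genes tested), and in WM cells Cspg4 (the 1 oligodendrocyte precursor gene tested), Snap25 (1 of 2 neuronal genes) and Kl (1 of 2 choroid plexus genes) were. In WM cells the oligodendrocyte precursor list summed to 0.198 to 0.319 FPKM at 0 hr and 1.48 to 3.98 at 6 hr, the neuronal list to 2.01 to 3.96 and 3.48 to 7.54, and the choroid plexus list to 274 to 704 and 154 to 592. The endothelial sums there did not overlap, at 2.40 to 5.07 FPKM at 0 hr and 5.25 to 6.88 at 6 hr, with no gene called. In control cells the choroid plexus list summed to 72.8 to 211 FPKM at 0 hr and 94.9 to 1343 (median 179) at 6 hr, with no gene called, and the astrocyte list summed to 53.2 to 57.0 and 54.1 to 74.0 FPKM. No listed gene of these lists was at 0 throughout a group. The part of other cells in the fall of the members was not tested.

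By 24 hr the members had parted. Against 0 hr, 6 of 7 were still called lower in control cells (9.23% of all genes) and 7 of 7 in WM cells (8.29% of all genes). Against 6 hr, 4 members were called higher and 1 lower in control cells, where 28.3% of all genes were called in either direction, and 3 higher and 1 lower in WM cells, where 15.7% were. Tmem119, Cx3cr1 and Slc2a5 rose in both origins, Olfml3 passed the test in control cells alone, Sparc and Crybb1 passed in neither, and Upk1b went on falling in both. These comparisons share the 6 hr or 0 hr libraries of an origin. From 6 to 24 hr, 4 of 10 pan-myeloid genes were called higher and 1 lower in control cells, and 3 of 10 higher in WM cells. Their median log2 fold changes were 0.21 and 0.19, beside 0.61 and 0.34 over the members.
Markers of other cells moved over the same intervals. Against 0 hr at 24 hr, 2 of 6 monocyte genes were called higher and 1 of 6 border-associated macrophage genes tested was called lower in each origin, and 1 of 4 astrocyte genes tested was lower in control cells. In WM cells 1 of 2 choroid plexus, 1 of 7 neutrophil and 1 of 2 oligodendrocyte genes tested were called lower, and the 1 oligodendrocyte precursor gene tested was called higher. The choroid plexus sum in WM cells was 274 to 704 FPKM at 0 hr (median log2 fold change of the list -2.38). From 6 to 24 hr, 5 of 6 monocyte genes were called lower in each origin (median log2 fold changes -1.94 in control and -2.56 in WM cells), and both choroid plexus genes tested were called lower in each (-1.69 and -2.52). Neutrophil genes were called higher for 4 of 7 in control cells and 1 of 7 in WM cells (2.17 and 1.79). Of 6 border-associated macrophage genes tested, 3 were higher and 1 lower in control cells, and 1 was lower in WM cells. In control cells 1 of 4 astrocyte and 1 of 2 endothelial genes tested were called lower, and in WM cells the 1 oligodendrocyte precursor gene tested was. At 24 hr the neutrophil sum was 6308 to 15234 FPKM in control and 3138 to 7123 in WM cells, and the choroid plexus sum was 34.9 to 51.7 and 9.96 to 31.9. Their part in the changes of the members was not tested.
A library of each origin stood apart at 24 hr. Control library 4 read 556 FPKM for Tmem119, where the other 3 read 1790 to 1986, and 684 for Cx3cr1 against 1258 to 1660. WM library 2 read 317 FPKM for Olfml3 against 1190 to 1686, 33.8 for Crybb1 against 120 to 161 and 67.3 for Slc2a5 against 154 to 225, while its Tmem119 (2157 FPKM) lay among the others. Its monocyte sum was the highest of its group (757 FPKM, group range 147 to 757), and so was its astrocyte sum (56.6, range 34.5 to 56.6). Their part in the low values was not tested.
Upk1b read 13.8, 11.9, 26.1 and 21.3 FPKM in control cells at 24 hr, and 10.2, 7.40, 7.31 and 8.29 in WM cells. It was at 7.86% and 8.85% of its 0 hr mean, the lowest of the members, with log2 fold changes of -3.64 ± 0.27 and -3.33 ± 0.25 from 0 hr (adjusted p = 3.92e-09 and 3.49e-09). From 6 hr it fell by 0.82 ± 0.24 and 0.88 ± 0.25 on the log2 scale (adjusted p = 0.0124 and 0.0180). These later falls were lost without control 24 hr library 2 (0.0628) and without WM 6 hr library 3 or WM 24 hr library 3 (0.0943 and 0.0536).
Olfml3 read 1452, 1175, 1480 and 1009 FPKM in control cells at 24 hr, which overlapped with its 0 hr range, and it was the only member not called against 0 hr (-0.26, 95% confidence interval -0.94 to 0.42, adjusted p = 0.628). From 6 hr it had risen by 1.64 ± 0.29 (adjusted p = 0.000166), and the means put 78.4% of the 6 hr loss back. In WM cells it read 1686, 317, 1190 and 1192 FPKM, was lower than at 0 hr (-1.17 ± 0.31, adjusted p = 0.0085) and was not called against 6 hr (0.34 ± 0.31, adjusted p = 0.496), with 26.1% of the loss back. WM library 2 decided that last value: without it the rise was 0.86 and was called (adjusted p = 0.00145), and the fall from 0 hr was -0.65 (adjusted p = 0.0115). The WM fall from 0 hr was called in each of the 24 fits that left out 1 library, and was not called when the 2 groups were fitted alone (0.0511).
Tmem119 read 1979, 1790, 1986 and 556 FPKM in control cells at 24 hr and 2277, 2157, 2148 and 1904 in WM cells, or 54.6% and 54.1% of the 0 hr means. It had risen from 6 hr by 0.82 ± 0.26 and 1.08 ± 0.28 (adjusted p = 0.0208 and 0.00890), and by 1.27 in control cells without library 4 (adjusted p = 7.86e-06). In control cells that rise was lost without 6 hr library 2 or without 24 hr library 1, 2 or 3 (adjusted p 0.0550 to 0.0878), with the 2 groups fitted alone (0.134) and after quantile normalization (0.0597, and 0.0606 in WM cells). Its fall from 0 hr was -1.03 ± 0.30 and -0.89 ± 0.28 (adjusted p = 0.0156 and 0.0258). That fall was lost without control 0 hr library 2 or 3 (0.0554 and 0.0686), with the control groups alone (0.128), after quantile normalization in WM cells (0.0506) and without WM 0 hr library 2, 3 or 4 or WM 24 hr library 3 or 4 (0.0507 to 0.0647). Without control 24 hr library 4 the control fall was -0.58 (0.0281).
Cx3cr1 read 1477, 1258, 1660 and 684 FPKM in control cells and 1606, 1009, 1256 and 1182 in WM cells, at 53.0% and 52.5% of the 0 hr means. Its rises from 6 hr were 0.61 ± 0.22 and 0.72 ± 0.24 (adjusted p = 0.0434 and 0.0402). Of the 24 fits that left out 1 library, 10 and 6 lost these calls (adjusted p up to 0.165 and 0.131), and so did fits with no filter (0.0594 and 0.0558) and with quantile normalization (0.105 and 0.161). The control rise was also lost with its 2 groups alone (0.157). The libraries were control 6 hr 1, 2, 4 and 5, control 24 hr 1, 2 and 3, WM 0 hr 2 and 3 and WM 24 hr 3 for the control rise, and WM 6 hr 2, 3 and 4 and WM 24 hr 1, 3 and 4 for the WM rise. Its falls from 0 hr were -0.98 ± 0.25 and -0.95 ± 0.24 (adjusted p = 0.00737 and 0.00604), and quantile normalization ended the first (0.0675).
Slc2a5 read 169, 141, 230 and 87.4 FPKM in control cells and 225, 67.3, 163 and 154 in WM cells at 24 hr. It had regained 19.7% and 20.4% of its loss, rising by 1.21 ± 0.27 and 0.95 ± 0.28 from 6 hr (adjusted p = 0.0015 and 0.0227). The WM rise was lost without WM 6 hr library 1 or 4 or WM 24 hr library 1, 3 or 4 (0.0589 to 0.104). Its log2 fold changes from 0 hr were -1.83 ± 0.31 and -1.72 ± 0.28 (adjusted p = 0.000131 and 0.000128).
Sparc read 607 to 915 FPKM in control cells and 747 to 870 in WM cells, with changes from 6 hr of 0.07 (95% confidence interval -0.22 to 0.37) and 0.03 (-0.28 to 0.35). Crybb1 read 269, 283, 311 and 170 FPKM in control cells and 142, 33.8, 120 and 161 in WM cells. Its log2 fold changes from 0 hr were -1.05 ± 0.34 and -0.92 ± 0.32 (adjusted p = 0.0303 and 0.0429), and the WM value was -0.42 without WM library 2 (adjusted p = 0.187). The control call was lost without any control 0 hr library or without control 24 hr library 4 (0.0562 to 0.0960). The WM call was also lost without any WM 0 hr library (0.0723 to 0.0869), with no filter (0.0545), with no trend in the variance (0.0505) and with the 2 groups alone (0.1).
Of the 20 wider genes, 15 in control cells and 14 in WM cells were still lower at 24 hr than at 0 hr, and 10 and 6 were higher than at 6 hr. Gpr34 had risen most (2.38 ± 0.26 and 1.82 ± 0.28 on the log2 scale), with Bin1 next (1.63 ± 0.26 and 0.91 ± 0.28). P2ry12 stayed lowest against 0 hr (-2.51 ± 0.24 and -2.16 ± 0.23). Fcrls was called lower than at 6 hr in WM cells (-0.76 ± 0.22), the single gene of the list to do so.

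**Figure D4:**
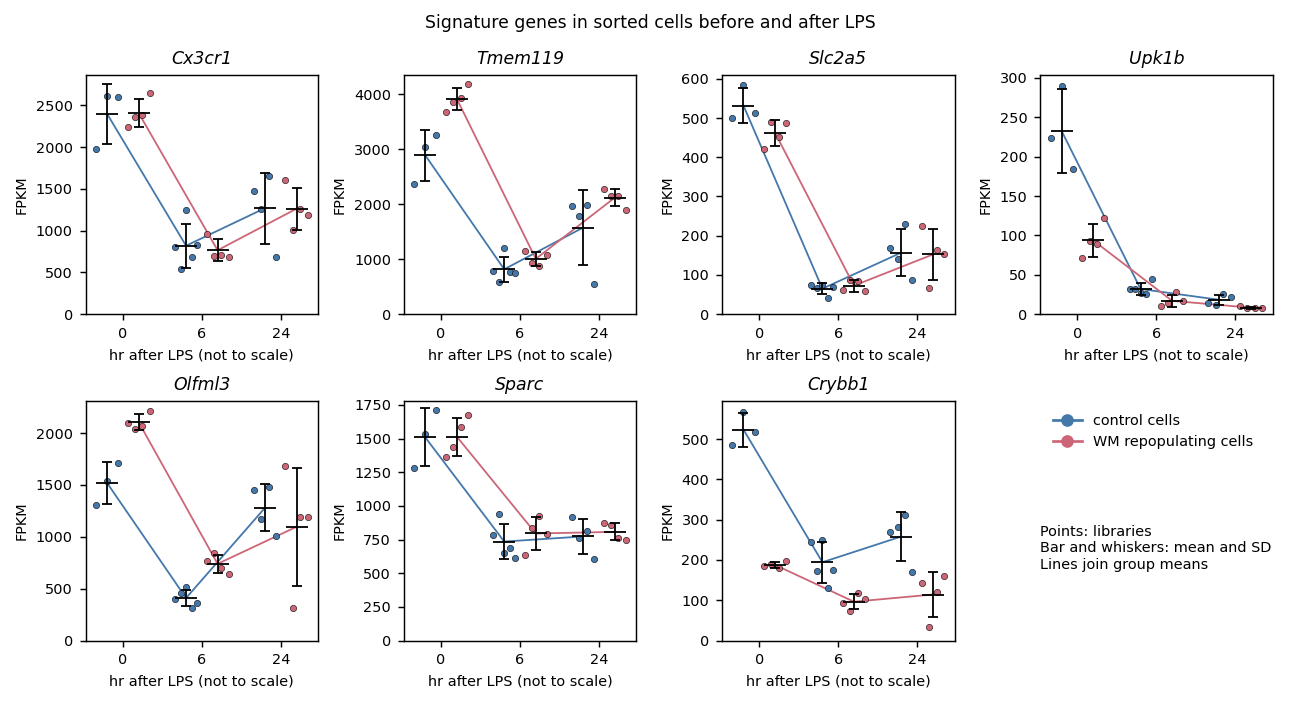
FPKM of the 7 signature genes (y axes, linear from 0) in sorted control cells (blue) and WM repopulating cells (red) at 0, 6 and 24 hr after LPS (x axes, not to scale), with 1 point per library, mean and SD. All 7 genes drop at 6 hr, Upk1b is lower still at 24 hr, and WM cells lie below control cells for Crybb1 at all 3 times.

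The 2 origins were also compared after LPS. At 6 hr no member was called between WM and control cells, beside 0.323% of all genes in either direction, although 3 of the 7 had an unadjusted limma p under 0.05. These were Upk1b (-0.93 ± 0.24, adjusted p = 0.0918), Crybb1 (-0.99 ± 0.30, adjusted p = 0.196) and Olfml3 (0.86 ± 0.29, adjusted p = 0.260). For Crybb1 and Olfml3 the 6 hr libraries of the 2 origins did not overlap. Without WM 24 hr library 2, Olfml3 was called higher (adjusted p = 0.00648) and Crybb1 lower (adjusted p = 0.011) in WM cells, and without WM 6 hr library 3 Upk1b was called lower (-1.18, adjusted p = 0.0186). The 1 oligodendrocyte precursor gene tested, Cspg4, was called higher in WM cells at 6 hr (1.75 ± 0.18), with list sums of 1.48 to 3.98 FPKM against 0.0567 to 0.508 in control cells, and its part in these values was not tested.
At 24 hr Crybb1 (-1.35 ± 0.32, adjusted p = 0.0158) and Upk1b (-1.0 ± 0.25, adjusted p = 0.0239) were called lower in WM cells, where 2.29% of all genes were. Both were lost with the 2 groups fitted alone (adjusted p = 0.125 and 0.0571). Upk1b was also lost without control 24 hr library 3 or 4 or WM 24 hr library 2 or 3 (0.0708 to 0.0872). Crybb1 without WM library 2 was -0.84 and still called (0.0321). Olfml3 was at -0.44 ± 0.31 (adjusted p = 0.49) with WM library 2 and 0.08 without it (adjusted p = 0.872). Tmem119 was 0.59 ± 0.28 higher without passing (adjusted p = 0.263), and 0.14 higher without control library 4 (adjusted p = 0.763). The 3 endothelial genes summed to 1.51 to 7.19 FPKM in WM cells against 7.57 to 12.7 in control cells at 24 hr, and the border-associated macrophage genes to 21.8 to 45.3 against 62.8 to 81.3. The choroid plexus sum was also lower in WM cells at that time, and the oligodendrocyte precursor sum was higher (0.716 to 1.15 against 0.0177 to 0.149 FPKM). In WM cells 1 of 2 endothelial and 1 of 6 border-associated macrophage genes tested were called lower. The 1 oligodendrocyte precursor gene tested and 1 of 10 pan-myeloid genes were called higher. The 7 neutrophil genes had a median log2 fold change of -1.22, with 0 called. The part of other cells in the Crybb1 and Upk1b calls was not tested. The wider list held a single call, Fcrls, lower in WM cells (-1.13 ± 0.22, adjusted p = 0.0044).
The response to LPS itself was compared between origins by an interaction term. No member was called at 6 hr (0.0237% of all genes were) or at 24 hr (0.0867%), none of the 7 had an unadjusted p under 0.05, and none of the 20 wider genes was called. Of the lists of other cells, Cspg4 was called at 6 hr (1.54 ± 0.28). The largest difference was that of Olfml3 at 24 hr (-0.92, 95% confidence interval -1.84 to 0.01, adjusted p = 0.581), and it was -0.40 without WM library 2 (adjusted p = 0.73). The intervals at 6 hr were wide, from -0.45 to 1.43 for Crybb1 and -0.47 to 1.21 for Slc2a5, so a p above the threshold does not show that the responses were alike.

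**Figure D5:**
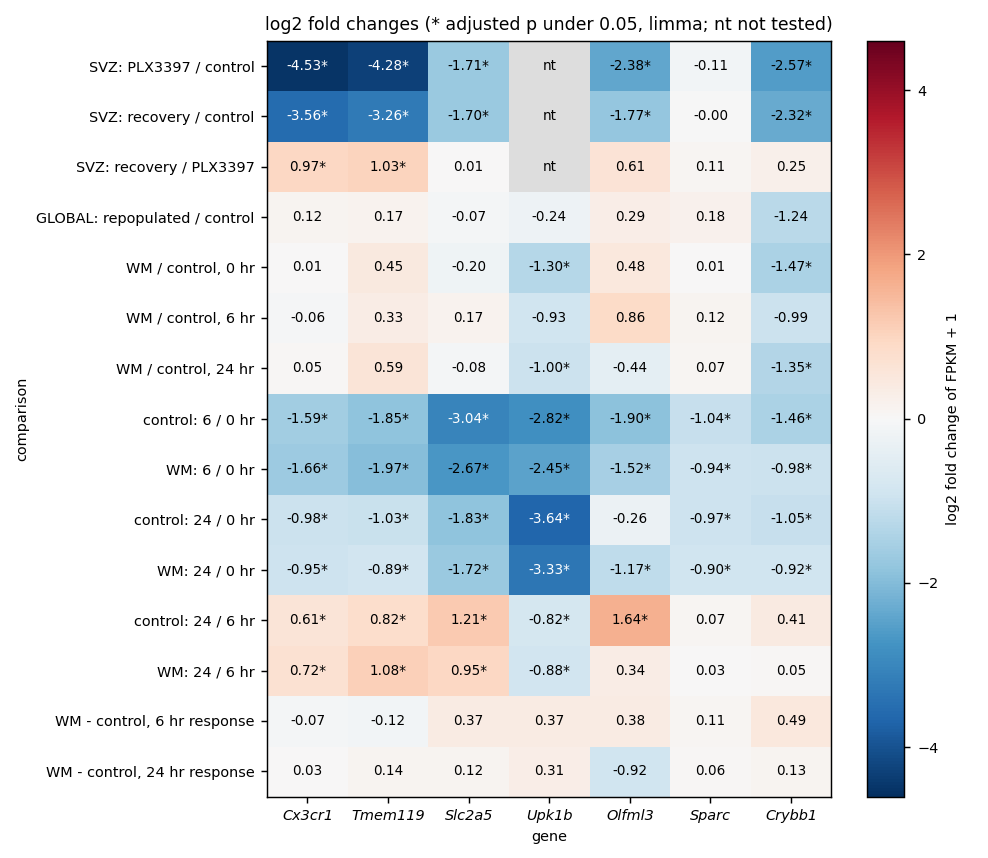
log2 fold changes of FPKM + 1 for the 7 signature genes (x axis) in the 15 comparisons (y axis, color scale in log2 units), with an asterisk for a limma adjusted p under 0.05 and nt for a gene not tested. The SVZ losses reach -4.53 for Cx3cr1, the 6 hr LPS falls reach -3.04 for Slc2a5, and Upk1b and Crybb1 are the 2 genes marked between WM and control cells.

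Over the 24 sorted libraries the members did not form 1 block. The correlation of log2(FPKM + 1) was highest between Tmem119 and Cx3cr1 (Pearson's r = 0.942) and between Cx3cr1 and Slc2a5 (0.938), and lowest between Tmem119 and Crybb1 (0.303) and between Upk1b and Olfml3 (0.399). Libraries of a group and of a time share their LPS state, so these values are a description. Among 7961 other genes with a mean of at least 5 FPKM, those most like Cx3cr1 were Asb2 (r = 0.970), Twf2 (0.970) and Scamp2 (0.957), and those most like Tmem119 were Gna15 (0.976), Twf2 (0.969) and Pla2g15 (0.967). Slc2a5 was closest to Jam2 (0.985), Ctsf (0.978) and Adgrg1 (0.972). Sparc was closest to Laptm5 (0.966), Siglech (0.954) and Map1lc3a (0.948), and Olfml3 to Fam167b (0.925), Ckb (0.917) and Abhd12 (0.911). Upk1b had Serpine2 (0.962), Eva1a (0.908) and Tnfrsf17 (0.907). Crybb1 was least like any other gene, with Csmd3 (0.893), Fcrls (0.854) and Apbb1ip (0.827) at the top. No member stood among the 3 genes most like another member.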

How the data were processed

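RNA-seq values of 46 mouse libraries were taken from 3 deposited tables. The submitters' processing notes name STAR, featureCounts, edgeR, limma and the mm10 build. The deposited values are FPKM (the authors' text says RPKM), scaled per table by the authors. Labels and methods describe the library preparation differently, so no kit is given here. Gene lengths and whole fragments were recovered from the steps between low FPKM values, and 95.1% (SVZ) to 100% of low values were whole within 0.01 fragments. Among SVZ symbols, 25 were dates and were looked up by Entrez ID. Groups came from the labels, 0 pairs of libraries were identical, and 0 columns of per-sample values were left unused.

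The main test was limma 3.58.1 in R 4.3.3 (lmFit, eBayes with trend) on log2(FPKM + 1), with all groups of a table in 1 fit, over genes reaching 1 FPKM in 3 or more libraries, and Benjamini-Hochberg adjustment over all of them. It was tested on simulated data. The 7 members and all lists were chosen with earlier results of these data known. All members are named throughout. Of the wider list, up to 4 called genes with the largest change in a comparison could be named, and for likeness the 3 genes with the highest correlation. Every result was recomputed with another pseudocount (0.1), other filters, only the groups compared, no variance trend, quantile normalization, median scaling, the replicate number as a block and without each library in turn.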

Additional observations from a re-analysis of the deposited data

Results flagged for a closer look

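Libraries far from the rest of their group were looked for in the 63 combinations of member and group with 4 or 5 libraries, by the gap to the nearest library over the group's range. It was past the 95% limit in 6 of them, and chance alone gives about 1 in 20. GLOBAL control library 4 was the highest of its group for Tmem119 (3063 FPKM) and for Slc2a5 (295 FPKM). Control library 4 at 24 hr was the lowest of its group for Tmem119 (556 FPKM). WM library 1 at 6 hr was the highest for Cx3cr1 (966 FPKM), control library 4 at 6 hr was the lowest for Slc2a5 (40.1 FPKM), and SVZ library 5 after PLX3397 was the highest for Tmem119 (1.22 FPKM). No difference in the LPS response between origins was called for a member.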

How the results depend on the processing

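The 6 hr falls in control cells gave 7 members called under every alternative run, and those in WM cells 7 except without WM 6 hr library 2 (6). Each SVZ comparison with control gave 5, except 4 when 1 FPKM was asked of more libraries (1 member fewer was tested) and 6 at recovery with no filter (Upk1b added). Against 0 hr at 24 hr, 4 to 6 members were called in control cells and 5 to 7 in WM cells. Fitting only the groups compared left 1 member called for SVZ recovery against drug, 0 for WM against control at 24 hr and 3 for 24 against 6 hr in control cells. Quantile normalization left 1 for WM against control at 0 hr, 3 for 24 against 6 hr in control cells and 2 in WM cells. It also turned the sign of Cx3cr1 (-0.0632) and Sparc (-0.131) for WM against control at 0 hr, of Cx3cr1 (-0.130) and Sparc (-0.0410) at 24 hr, of Sparc for 24 against 6 hr in control (-0.00315) and WM (-0.172) cells, of Tmem119 (0.0563) in the 6 hr and Cx3cr1 (-0.0665) in the 24 hr interaction, and of Tmem119 (-0.00180) and Cx3cr1 (-0.0783) for GLOBAL against control. Median scaling turned Cx3cr1 (-0.000537) and Sparc (-0.00490) for WM against control at 0 hr, and a pseudocount of 0.1 turned Slc2a5 (-0.00573) for SVZ recovery against drug. None of these values was called, and the cause was not tested.

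Same-numbered libraries deviated together in 5 of 15 SVZ pairs, 7 of 55 sorted WM and LPS pairs and 2 of 3 GLOBAL pairs (correlation over 0.1). Among GLOBAL libraries the same-numbered correlations were 0.0562 to 0.137, against -0.141 to 0.0910 for other numbers. No label ties the numbers, so they were not taken to pair libraries. With 3 GLOBAL pairs, a pairing there was not settled. The replicate number as a block left 1 member called for SVZ recovery against drug, where the Tmem119 call was lost (limma adjusted p = 0.0784). With the block 1 member was called for GLOBAL against control (Crybb1, -1.01, adjusted p = 0.0398). The block also turned Cx3cr1 (-0.0399) in the 24 hr interaction and Slc2a5 (0.0222) for GLOBAL against control. It changed no other call.

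Without each library in turn, the number of members called ran from 1 to 3 for SVZ recovery against drug, 0 to 2 for WM against control at 0 hr, 0 to 2 for WM against control at 6 hr, 1 to 2 for WM against control at 24 hr, 2 to 5 for 24 against 6 hr in control cells and 1 to 5 for 24 against 6 hr in WM cells. Log2 fold changes near 0 changed sign in some of these fits. For SVZ drug against control the ranges were Sparc -0.25 to 0.0641. For SVZ recovery against control the ranges were Sparc -0.14 to 0.17. For SVZ recovery against drug the ranges were Slc2a5 -0.0427 to 0.0491 and Sparc -0.0651 to 0.27. For WM against control at 0 hr the ranges were Cx3cr1 -0.12 to 0.0831 and Sparc -0.10 to 0.11. For WM against control at 6 hr the ranges were Cx3cr1 -0.19 to 0.11. For WM against control at 24 hr the ranges were Cx3cr1 -0.22 to 0.20, Slc2a5 -0.34 to 0.26, Olfml3 -0.72 to 0.0819 and Sparc -0.0365 to 0.16. For 24 against 6 hr in control cells the ranges were Sparc -0.0111 to 0.19. For 24 against 6 hr in WM cells the ranges were Sparc -0.072 to 0.11 and Crybb1 -0.18 to 0.56. For the interaction at 6 hr the ranges were Tmem119 -0.23 to 0.0313 and Cx3cr1 -0.21 to 0.091. For the interaction at 24 hr the ranges were Tmem119 -0.31 to 0.31, Cx3cr1 -0.24 to 0.19, Slc2a5 -0.14 to 0.46, Sparc -0.0468 to 0.18 and Crybb1 -0.11 to 0.63. For GLOBAL against control the ranges were Slc2a5 -0.16 to 0.0222.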
